A study of Mus musculus with 6 samples.

Results

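Amino acid transporter genes of the plasma membrane were measured in C2C12 cells, a mouse myoblast line that proliferates in serum and can be driven to form myotubes. The set held 10 genes, Slc3a2, Slc7a5, Slc7a6, Slc7a11, Slc7a1, Slc1a4, Slc1a5, Slc38a1, Slc38a2 and Slc6a9, chosen by symbol from the 52740 gene rows of the deposited count table. Each of the 10 was found as 1 row and passed the filter on low counts. One group of 3 libraries received an siRNA against Cox7a2l (siCOX7A2L), and the other group of 3 received a random control siRNA (siCTRL). Cox7a2l encodes a mitochondrial protein needed to assemble the respiratory supercomplex of complexes III and IV. All 6 cultures were C2C12 cells kept in DMEM with fetal bovine serum and transfected with RNAiMAX. RNA was depleted of ribosomal RNA and sequenced as dUTP-stranded libraries. C2C12 is a single cell line, and neither the time from transfection to harvest nor the number of siRNA sequences is given in the sources used here. Whether the replicates came from separate cultures is not stated, and the p-values below rest on the spread between these 6 libraries, which may be technical.

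Cells cannot pass amino acids through the lipid bilayer and use several carrier families with overlapping substrates. Some carriers load the cell by using the sodium gradient or the membrane potential, and others exchange one amino acid for another, so that glutamine taken up by a loader can be traded for leucine and other essential amino acids. Leucine and arginine inside the cell are signals for the growth kinase mTORC1. Several carrier genes are transcribed more when amino acids run short, through the kinase GCN2 and the transcription factor ATF4, and in muscle these carriers are known for supplying the amino acids of protein synthesis.

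The libraries held 9890218 to 15095348 estimated counts in the siCOX7A2L group and 14310241 to 17077826 in the siCTRL group, with the fewest in siCOX7A2L replicate 3. Cox7a2l itself had 6.72, 5.90 and 3.59 CPM (counts scaled to library depth with TMM) in siCOX7A2L replicates 1, 2 and 3, against 58.0, 59.5 and 58.9 CPM in siCTRL replicates 1, 2 and 3 (log2 fold change -3.44, edgeR adjusted p = 1.9e-05). On the first principal component, with 61.2% of the variance, both libraries numbered 3 lay far from the other 4. Fold changes therefore compare libraries of the same number, with the replicate number as a block. The most abundant gene row, which has no symbol in the reference, took 6.97%, 7.57% and 11.1% of the counts in siCOX7A2L replicates 1, 2 and 3, against 6.59%, 6.25% and 5.81% in siCTRL replicates 1, 2 and 3. The myoblast markers Myod1 and Des were present in every library, at 118 to 161 and 728 to 1892 CPM after siCOX7A2L and at 127 to 134 and 766 to 1072 CPM after siCTRL.

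By chromosome, Slc7a11 lies on 3, Slc6a9 on 4, Slc7a1 on 5, Slc1a5 on 7, Slc7a5 and Slc7a6 on 8, Slc1a4 on 11, Slc38a1 and Slc38a2 on 15, and Slc3a2 on 19.

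None of the 10 transporter genes passed the threshold (edgeR quasi-likelihood test, Benjamini-Hochberg adjusted p under 0.05 over 15022 tested genes), and 9 of the 10 had lower values in the siCOX7A2L library of all 3 pairs. Over all tested genes 0.726% passed, 0.433% higher and 0.293% lower after siCOX7A2L. At an unadjusted p under 0.05 in edgeR, 5 of the 10 were lower and 0 were higher, while 17.7% of all tested genes reached that level and 8.97% were lower at it. A lower value in all 3 pairs was found for 20.8% of all tested genes and a higher value in all 3 for 21.2%. All 10 log2 fold changes were negative, as were 48.9% of those of all tested genes. The median log2 fold change of the 10 genes was -0.30, beside 0.0077 over all tested genes, whose quartiles were -0.19 and 0.22. It was -0.24, -0.17 and -0.46 in pairs 1, 2 and 3. DESeq2 with the block passed 0 of the 10 and called 4.01% of its 12224 genes. At an unadjusted p under 0.05 it had 3 of the 10, beside 1975 of the 12224. Limma on log2(TPM + 1) also passed 0 of the 10. It had 7 at that level, beside 2041 of 15022 genes, and a median log2 fold change of -0.18 over all genes. Without the block edgeR passed 0, had 0 at that level and called 0.0133% of all genes. Each 95% confidence interval of the 10 genes lay above a log2 fold change of -1, with the lowest bound at -0.90. RNA of a bulk culture does not show whether fewer cells carried a transcript or each cell carried less of it.

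**Figure D1:**
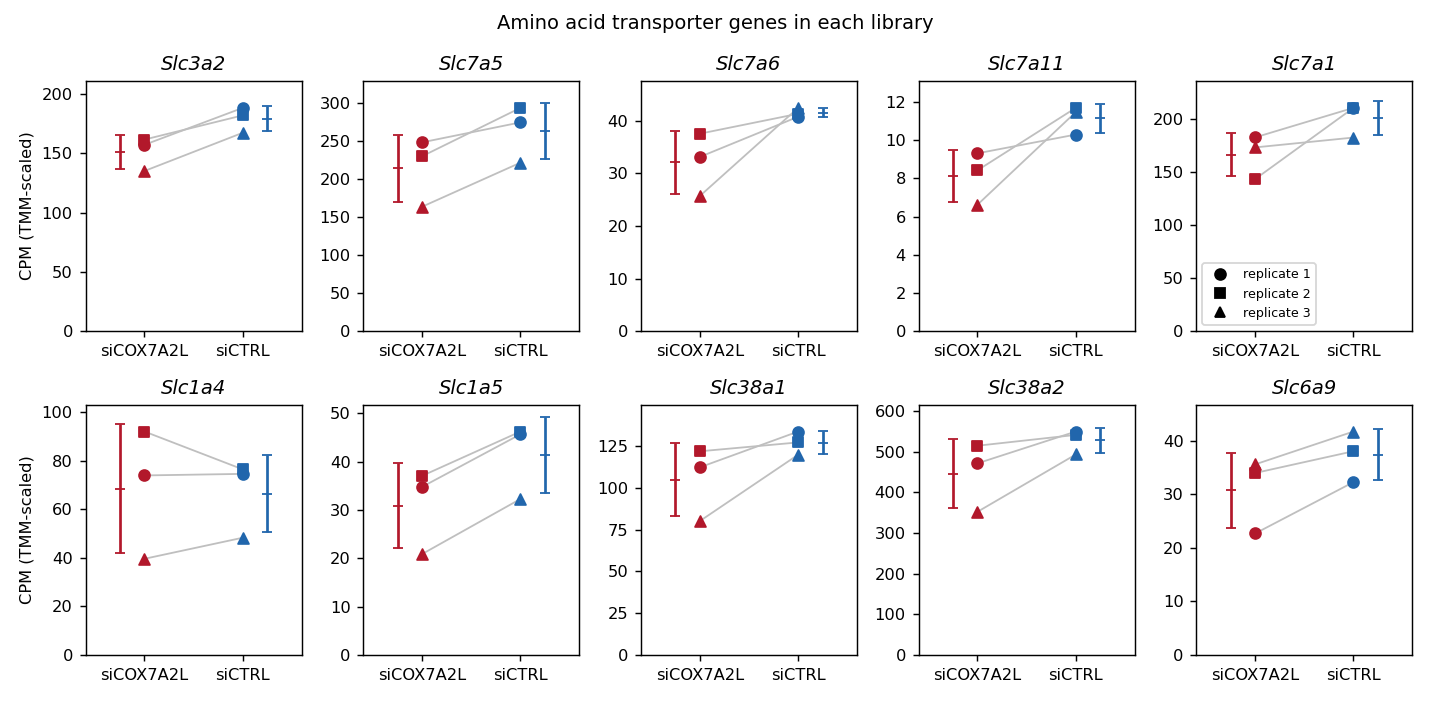
TMM-scaled CPM of each transporter gene (y axes from 0) in the 3 siCOX7A2L and 3 siCTRL libraries, with symbols for the replicate number, grey lines joining libraries of the same number, and bars for mean and SD. Lines run upwards to siCTRL in all 3 pairs for every gene but Slc1a4, while the groups are separate only for Slc3a2, Slc7a6 and Slc7a11.

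Slc3a2 encodes the heavy chain CD98hc, which carries no amino acid itself and brings its light chains to the plasma membrane through a disulfide bond. It had 157, 162 and 135 CPM in siCOX7A2L replicates 1, 2 and 3, against 188, 182 and 167 CPM in siCTRL replicates 1, 2 and 3. Each siCOX7A2L library was below each siCTRL library, as in 3 of the 10 carriers and in 7.62% of all tested genes, while 7.96% of all tested genes were separate in the other direction. Its estimate of -0.25 on the log2 scale (95% interval -0.50 to 0.0065) did not pass (edgeR adjusted p = 0.293), and the pairs gave -0.26, -0.17 and -0.31.

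Among its light chains, Slc7a5 encodes LAT1, the exchanger that imports leucine and other large neutral amino acids. Its level was 249, 230 and 164 CPM in siCOX7A2L replicates 1, 2 and 3 and 275, 294 and 222 CPM in siCTRL replicates 1, 2 and 3. The groups overlapped, because siCTRL replicate 3 lay below siCOX7A2L replicates 1 and 2. Its log2 fold change of -0.31 (95% interval -0.57 to -0.047) did not pass in edgeR (adjusted p = 0.209).

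Slc7a6 encodes y+LAT2, which exports arginine in exchange for glutamine and sodium. Values of 33.1, 37.6 and 25.7 CPM in siCOX7A2L replicates 1, 2 and 3 stood against 40.8, 41.4 and 42.5 CPM in siCTRL replicates 1, 2 and 3. The groups did not overlap, and the 3 siCTRL libraries were close to each other. A log2 fold change of -0.38 (95% interval -0.72 to -0.043) did not pass (edgeR adjusted p = 0.229), and the pairs gave -0.30, -0.14 and -0.72.

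Slc7a11 encodes xCT, which imports cystine for glutathione synthesis in exchange for glutamate. It is known as a target of both ATF4 and the oxidative stress factor NRF2. It had 9.32, 8.43 and 6.63 CPM in siCOX7A2L replicates 1, 2 and 3 and 10.3, 11.7 and 11.5 CPM in siCTRL replicates 1, 2 and 3. Here too the groups were separate, with the largest estimated difference of the 10 (log2 fold change -0.46, 95% interval -0.90 to -0.021, edgeR adjusted p = 0.258). The interval includes the values of all other members but Slc1a4. The pairs spread widely, at -0.14, -0.47 and -0.78.

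The promoter stretches of Slc7a11 and Slc1a4 are shown because they hold the matches, among the 7 genes with a window, to the amino acid response element to which ATF4 binds. RefSeq start site windows on GRCm38.p6, from 250 bases before to 50 bases after a start, were given for 7 of the 10 genes in 11 windows. Both stretches are written on the gene's own strand, 5′ to 3′, and capitals mark each match to TGATGNAA on either strand.
Slc7a11: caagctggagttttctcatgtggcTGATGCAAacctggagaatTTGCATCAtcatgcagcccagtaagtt
Slc1a4: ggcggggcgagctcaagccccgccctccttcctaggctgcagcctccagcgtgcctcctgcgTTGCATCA
The Slc7a11 stretch lies at chr3:50443634-50443703 and the Slc1a4 stretch at chr11:20332710-20332779, both on the minus strand. Counting the first base after the 250 as 0, the Slc7a11 matches covered positions -66 to -59 and -47 to -40, and the Slc1a4 match covered -4 to 3. At least 1 match was present in 3.97% of the 32851 windows of all genes, and at least 2 in 0.0700%. In the human gene of Slc38a2 the known element lies in an intron, outside such a window. The core of the antioxidant response element, TGACNNNGC, was found on either strand in 6 of the 11 windows (Slc6a9, Slc7a1, Slc7a6 and Slc38a2) and in 12.4% of all windows. The E-box CACGTG was in 0 of the 11 and in 7.15% of all windows. No window was given for Slc7a5, Slc1a5 and Slc38a1. A match describes these letters only and shows no binding in these cells. The pair of genes with a TGATGNAA match had the most negative and the least negative log2 fold change of the 10.

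Slc7a1 encodes CAT1, the main loader of arginine and lysine, driven by the membrane potential. Its libraries gave 183, 144 and 173.5 CPM in siCOX7A2L replicates 1, 2 and 3, against 211, 211 and 183 CPM in siCTRL replicates 1, 2 and 3. The groups touched, with siCOX7A2L replicate 1 just above siCTRL replicate 3. It did not pass, with a log2 fold change of -0.28 (95% interval -0.56 to 0.0070, edgeR adjusted p = 0.293). Unlike most of the 10 it was furthest below control in pair 2 (-0.55) and near the control value in pair 3 (-0.075).

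Slc1a4 and Slc1a5 encode ASCT1 and ASCT2, sodium-dependent exchangers of small neutral amino acids, of which ASCT2 is a main route for glutamine. Slc1a4 was the only one of the 10 with pairs on both sides of 0, at -0.012, 0.27 and -0.29. It had 74.0, 92.1 and 39.6 CPM in siCOX7A2L replicates 1, 2 and 3, and 74.7, 76.5 and 48.3 CPM in siCTRL replicates 1, 2 and 3. In both groups replicate 3 was the low library, and the difference between groups was within the spread of either (log2 fold change -0.0048, 95% interval -0.32 to 0.31, edgeR adjusted p = 0.991). Slc1a5 had 34.8, 37.1 and 20.9 CPM in siCOX7A2L replicates 1, 2 and 3, against 45.7, 46.2 and 32.3 CPM in siCTRL replicates 1, 2 and 3. Its replicate 3 was also low in both groups, so that siCTRL replicate 3 overlapped the siCOX7A2L range. Slc1a5 had the lowest p of the 10 (log2 fold change -0.44, 95% interval -0.75 to -0.13, edgeR adjusted p = 0.141), with pair values of -0.39, -0.32 and -0.62.

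In the authors' deposited table Slc1a5 was the 1 transporter of the 10 with an adjusted p under 0.05 (log2 fold change -0.45, standard error 0.15, adjusted p = 0.0467). Of the 12742 genes given an adjusted p in the authors' deposited table, 6.34% were under 0.05 and 3.45% were lower and under 0.05. The authors' deposited table does not mark Slc1a5 as down. Each of the 293 genes it marks up and the 332 it marks down has a log2 fold change of at least 0.50 in size.

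Slc38a1 and Slc38a2 encode SNAT1 and SNAT2, sodium-coupled loaders of glutamine and other small neutral amino acids. SNAT2 is the carrier best known for its induction by amino acid shortage. Slc38a2 had 471, 515 and 352 CPM in siCOX7A2L replicates 1, 2 and 3 and 549, 541 and 493 CPM in siCTRL replicates 1, 2 and 3. Its siCTRL libraries lay close together, and the low value of siCOX7A2L replicate 3 was the farthest from them. Its log2 fold change was -0.26 (95% interval -0.54 to 0.016, edgeR adjusted p = 0.310). Slc38a1 was likewise lowest in siCOX7A2L replicate 3, with 112, 122 and 80.2 CPM in siCOX7A2L replicates 1, 2 and 3, against 134, 127 and 119.9 CPM in siCTRL replicates 1, 2 and 3. There the log2 fold change was -0.30 (95% interval -0.59 to -0.0025, edgeR adjusted p = 0.279), and siCOX7A2L replicate 2 overlapped siCTRL replicate 3. For both genes pair 3 gave the most negative value, -0.49 for Slc38a2 and -0.58 for Slc38a1, while pair 2 gave -0.073 and -0.062.

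Slc6a9 encodes GlyT1, a glycine carrier driven by sodium and chloride. It had 22.7, 34.0 and 35.6 CPM in siCOX7A2L replicates 1, 2 and 3, and 32.3, 38.1 and 41.7 CPM in siCTRL replicates 1, 2 and 3. On CPM the groups overlapped, and replicate 1 was the low library in both. With a 95% interval of -0.61 to 0.015, its log2 fold change of -0.30 did not pass (edgeR adjusted p = 0.304).

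**Figure D2:**
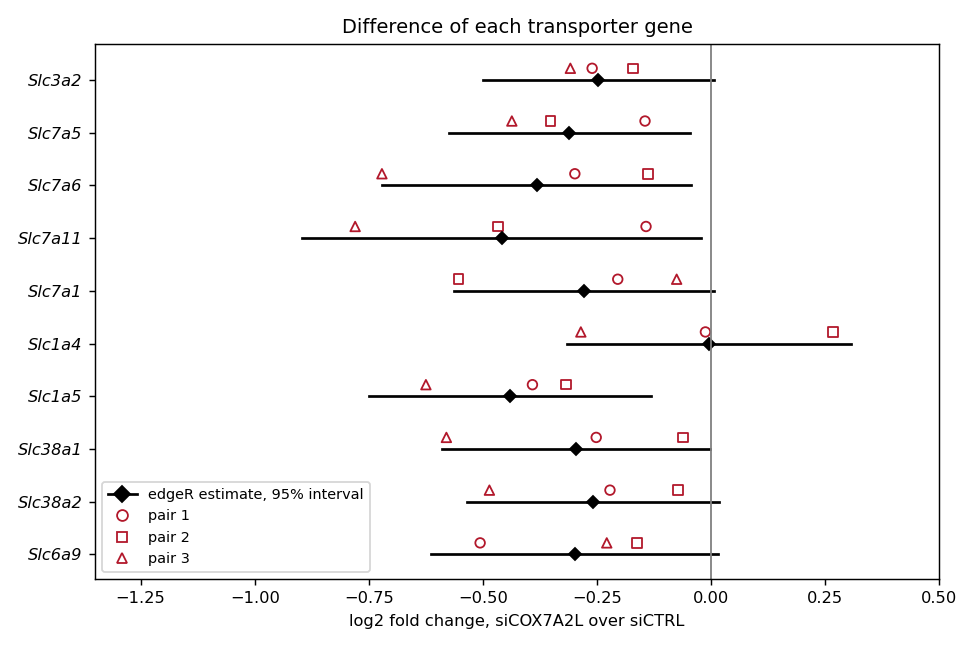
Log2 fold change of each transporter gene, siCOX7A2L over siCTRL, with black diamonds for the edgeR estimate with the replicate block, lines for its 95% interval, and open red symbols for the 3 pairs (log2 CPM with a prior count of 2). Estimates run from -0.46 for Slc7a11 to -0.0048 for Slc1a4, and in 8 of the 10 genes pair 3 is the most negative.

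Pair 3 gave the most negative value for 8 of the 10 genes, the exceptions being Slc7a1 and Slc6a9. It joins the library with the fewest counts and the largest share of the row without a symbol (siCOX7A2L replicate 3) to the deepest one. Without pair 3, 9 of the 10 log2 fold changes were negative, with a median of -0.24 and the lowest edgeR adjusted p at 0.213. The part of depth and RNA composition in the size of pair 3 was not tested. Replicate 3 was also the lowest library of its group for 8 of the 10 genes after siCOX7A2L and for 7 of the 10 after siCTRL. Differentiated muscle markers summed to 11.4 to 384 CPM over the siCOX7A2L libraries and 14.1 to 165 CPM over the siCTRL libraries, each time highest in replicate 3. Of the 12 markers none was at 0 in all libraries, 9 were tested, 1 rose (Acta1, skeletal actin) and 0 fell. In edgeR 5 of the 9 were higher at an unadjusted p under 0.05 and 0 were lower. Over all tested genes 17.7% reached that level in either direction, while 0.433% rose and 0.293% fell at the adjusted threshold. The 9 tested markers had a median log2 fold change of 1.14, with medians of 0.94, -0.12 and 1.31 in pairs 1, 2 and 3. Their part in the transporter values was not tested.

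Per transcript length, Slc3a2, Slc38a2 and Slc7a5 were the most abundant of the 10 and Slc7a11 the least abundant in every library. In TPM, a scale of transcripts corrected for length, Slc3a2 averaged 70.7 ± 22.4 after siCOX7A2L and 96.7 ± 5.69 after siCTRL (SD, n = 3 each). Slc38a2 averaged 68.7 ± 24.4 TPM after siCOX7A2L and 94.7 ± 3.05 TPM after siCTRL, so the pair did not differ beyond its spread in either group. Slc7a5 averaged 52.9 ± 21.8 TPM after siCOX7A2L and 74.7 ± 9.16 TPM after siCTRL. Next came Slc7a1, the arginine loader, with 23.4 ± 8.15 TPM after siCOX7A2L and 34.8 ± 6.09 TPM after siCTRL. Slc38a1 averaged 16.6 ± 6.18 TPM after siCOX7A2L and 22.6 ± 1.19 TPM after siCTRL. Slc7a6, Slc1a4, Slc1a5 and Slc6a9 changed places from library to library, with means of 7.69 to 13.5 TPM after siCOX7A2L and 13.4 to 18.4 TPM after siCTRL, and Slc7a6 exceeded Slc38a1 in replicate 3 of both groups. Slc7a11 averaged 1.34 ± 0.337 TPM after siCOX7A2L and 2.17 ± 0.520 TPM after siCTRL. TPM values between the groups also move with the row without a symbol, which took 44.2%, 46.3% and 53.6% of TPM in siCOX7A2L replicates 1, 2 and 3, against 42.5%, 41.4% and 36.9% in siCTRL replicates 1, 2 and 3.

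Shares within the set do not depend on that row. The SNAT pair made up 30.9 ± 0.79% of the summed TPM of the 10 genes after siCOX7A2L and 30.1 ± 0.58% after siCTRL (SD, n = 3 each). The heavy chain made up 25.9 ± 1.20% after siCOX7A2L and 24.8 ± 0.59% after siCTRL. For the 3 light chains the share was 23.6 ± 0.57% after siCOX7A2L and 24.5 ± 1.88% after siCTRL. The ASC exchangers took 8.13 ± 1.69% after siCOX7A2L and 8.32 ± 0.58% after siCTRL, Slc7a1 took 8.56 ± 1.05% after siCOX7A2L and 8.89 ± 1.16% after siCTRL, and Slc6a9 took 2.93 ± 0.63% after siCOX7A2L and 3.43 ± 0.71% after siCTRL. No share differed by more than the larger of its SDs.

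A heavy chain reaches the membrane with 1 light chain, so the messages were also compared as a ratio within each library. Slc3a2 TPM divided by the summed TPM of its light chains Slc7a5, Slc7a6, Slc7a7, Slc7a8, Slc7a10 and Slc7a11 was 1.02, 1.10 and 1.15 in siCOX7A2L replicates 1, 2 and 3, against 1.13, 0.971 and 0.938 in siCTRL replicates 1, 2 and 3. The groups overlapped, with means of 1.09 ± 0.0656 after siCOX7A2L and 1.01 ± 0.105 after siCTRL (SD, n = 3 each). Their log2 difference was 0.11, with p = 0.3 in a two-sided exact permutation test over the 6 libraries, where the smallest p that 3 against 3 allows is 0.1. Within pairs it was -0.15, 0.19 and 0.29, and it was 0.24 without pair 1, 0.072 without pair 2 and 0.018 without pair 3. Slc7a8 and Slc7a10 had 0 counts in every library, which allows up to 3 counts per library or 0.174 to 0.337 CPM, and Slc7a7 had at most 1.04 CPM.

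**Figure D3:**
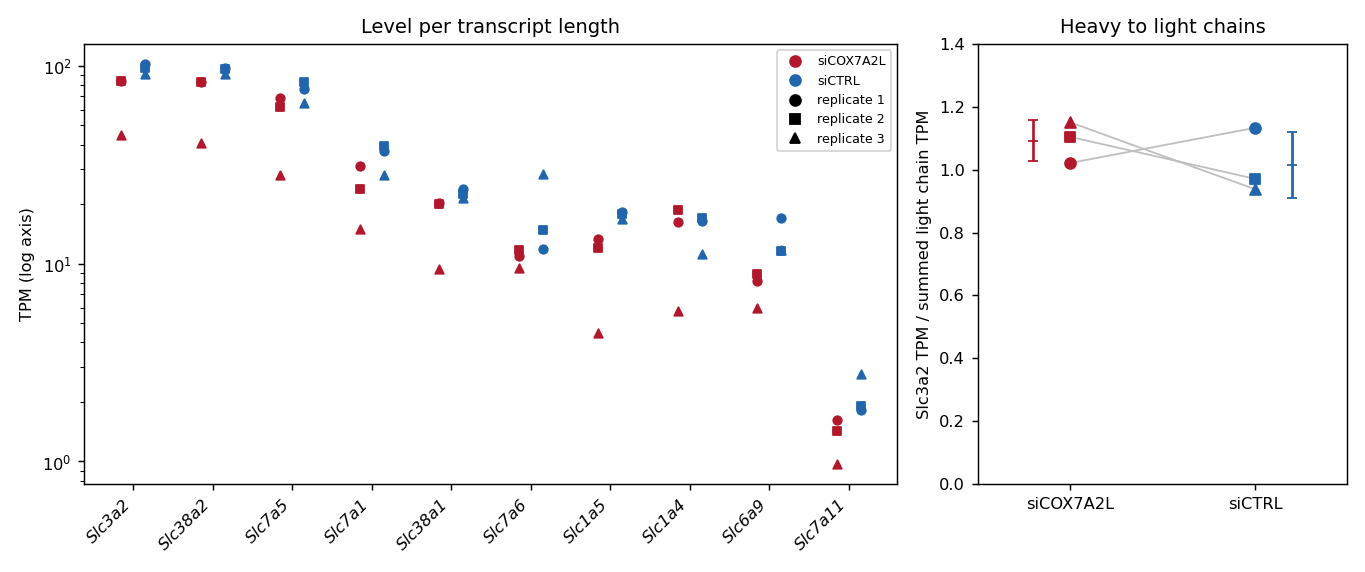
Left, TPM of the 10 transporter genes on a log axis, ordered by their mean in siCTRL, with siCOX7A2L in red and siCTRL in blue and a symbol for each replicate; Slc3a2, Slc38a2 and Slc7a5 lead in every library. Right, the ratio of Slc3a2 TPM to summed light chain TPM on an axis from 0, with mean and SD bars, lies between 0.938 and 1.15 in all 6 libraries.

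Genes of the amino acid response were examined next, because ATF4 is known to act on Slc7a11, Slc7a5, Slc3a2, Slc38a2 and other carriers. Of 31 tested genes on that list, which leaves out the 10 carriers, 3 fell after siCOX7A2L, 0 rose and 28 did not pass. Over all tested genes 0.293% fell and 0.433% rose. The 3 were Stc2, a secreted glycoprotein (log2 fold change -0.92, edgeR adjusted p = 0.0478), Psat1, an aminotransferase of serine synthesis (-0.81, edgeR adjusted p = 0.0400), and Chac1, which degrades glutathione (-0.76, edgeR adjusted p = 0.0370). Stc2 had 6.91, 8.92 and 8.87 CPM in siCOX7A2L replicates 1, 2 and 3, against 13.7, 14.6 and 18.7 CPM in siCTRL replicates 1, 2 and 3, with no overlap. Chac1 had 33.4, 31.5 and 26.7 CPM in siCOX7A2L replicates 1, 2 and 3, against 54.4, 56.4 and 44.9 CPM in siCTRL replicates 1, 2 and 3. Those groups did not overlap, and its pairs were alike at -0.70, -0.84 and -0.75. Psat1 had 272, 237 and 116 CPM in siCOX7A2L replicates 1, 2 and 3 and 385, 389 and 269.9 CPM in siCTRL replicates 1, 2 and 3. The siCTRL library of replicate 3 reached into the siCOX7A2L range for Psat1. The list's median log2 fold change was -0.33. Of the 31, 26 were negative and 20 lower in all 3 pairs, beside 48.9% and 20.8% of all tested genes. At an unadjusted p under 0.05 in edgeR 15 were lower and 1 was higher, while 8.97% of all tested genes were lower at that level.

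Members of the list that did not pass include Atf4, with 250, 233 and 274 CPM in siCOX7A2L replicates 1, 2 and 3, against 284, 293 and 407 CPM in siCTRL replicates 1, 2 and 3. The groups were separate (log2 fold change -0.36, 95% interval -0.63 to -0.090, edgeR adjusted p = 0.167). Asns, the asparagine synthetase induced when amino acids run short, had a log2 fold change of -0.48 (edgeR adjusted p = 0.137), the pseudokinase gene Trib3 had -0.65 (edgeR adjusted p = 0.166), and Ddit3, the stress factor CHOP, had -0.39 (edgeR adjusted p = 0.264). The count of 3 that fell stood beside 44 of all 15022 tested genes. It was 1 without pair 3, where 20 of 15053 genes fell. It was 6 without pair 1, where 201 of 15220 fell, and 6 without pair 2, where 668 of 15384 fell. It was 0 in edgeR without the block (2 of 15022 fell) and 5 with a replicate 3 term instead (79 of 15022). It was also 5 in DESeq2 with the block (277 of 12224), 1 with library size alone (17 of 15022) and 0 in limma on log2(TPM + 1) (7 of 15022). Without the low-count filter edgeR called 10 of the list lower and 1 higher, beside 689 lower and 568 higher of 26739 genes.

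Genes of the kinases upstream of ATF4 gave no call, and the activity of these kinases was not measured. Of 8 tested genes of eIF2alpha kinases and their partners 0 passed (median log2 fold change 0.048), with 0 at an unadjusted p under 0.05 in edgeR and 0 called by DESeq2 with the block. Eif2ak4, which encodes GCN2, had 45.6, 52.5 and 35.0 CPM in siCOX7A2L replicates 1, 2 and 3, against 48.3, 49.1 and 49.2 CPM in siCTRL replicates 1, 2 and 3 (edgeR adjusted p = 0.638). Its activator Gcn1l1 had a log2 fold change of 0.020 and the target subunit gene Eif2s1 -0.18, and neither passed.

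Genes of NRF2 and glutathione metabolism, which share Slc7a11 with the ATF4 response, gave 1 call among 19 tested and a median log2 fold change of -0.043. The call was the fall of Chac1 described above, a gene counted on both lists. Over all tested genes 0.293% fell and 0.433% rose. Of the 19, 12 were negative and 7 positive. At an unadjusted p under 0.05 in edgeR 2 were lower and 0 higher, while 8.97% of all tested genes were lower at that level. Nfe2l2, which encodes NRF2, had 63.1, 73.2 and 92.9 CPM in siCOX7A2L replicates 1, 2 and 3, against 55.3, 60.6 and 79.6 CPM in siCTRL replicates 1, 2 and 3, and did not pass (log2 fold change 0.23, edgeR adjusted p = 0.360). Both subunits of glutamate-cysteine ligase were near the control value, with log2 fold changes of 0.023 for Gclc and -0.10 for Gclm. The 95% interval of Gclc ran from -0.27 to 0.32. Txnrd1, a thioredoxin reductase, had -0.014.

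Other carriers of the plasma membrane did not pass. Of 39 listed, 14 were abundant enough to test, 0 were called, and their median log2 fold change was -0.036, with 9 negative and 5 positive. At an unadjusted p under 0.05 in edgeR 2 were higher and 3 lower, beside 8.97% of all tested genes lower at that level. The lower ones were Slc43a1 (log2 fold change -0.76, edgeR adjusted p = 0.238), Slc43a3 (-0.53, edgeR adjusted p = 0.1785) and Slc6a17 (-0.50, edgeR adjusted p = 0.17). Each of these was lower in all 3 pairs. Slc43a2 was higher (0.47, edgeR adjusted p = 0.209), as was Slc1a3. DESeq2 with the block called 0 of the 14. The 2 with the highest mean CPM, a scale not corrected for length, were Slc6a6, the taurine carrier, with a log2 fold change of -0.023, and Slc38a10 with 0.0050. The glutamate carrier gene Slc1a3, named after its values were seen because its direction was opposite to that of the 10, had 42.6, 45.2 and 25.7 CPM in siCOX7A2L replicates 1, 2 and 3, against 28.8, 26.6 and 22.5 CPM in siCTRL replicates 1, 2 and 3 (log2 fold change 0.51, edgeR adjusted p = 0.128).

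Carriers of the inner mitochondrial membrane gave 0 calls among 12 tested, with 10 negative and a median log2 fold change of -0.27. At an unadjusted p under 0.05 in edgeR 5 were lower and 1 was higher, beside 8.97% of all tested genes lower at that level. The lower ones were Sfxn2 (log2 fold change -0.70), Slc25a40 (-0.54), Slc25a15 (-0.52), Sfxn1 (-0.39) and Slc25a12 (-0.38). DESeq2 with the block called 0 of the 12. Sfxn3, a sideroflexin, was the higher one, with 96.8, 133 and 97.1 CPM in siCOX7A2L replicates 1, 2 and 3, against 88.5, 83.3 and 71.0 CPM in siCTRL replicates 1, 2 and 3 (log2 fold change 0.42, edgeR adjusted p = 0.151). Slc25a39, the mitochondrial glutathione carrier, had -0.031.

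Lysosomal carriers and the sensors that report amino acids to mTORC1 gave 0 calls among 40 tested, with a median log2 fold change of 0.033. In edgeR 2 were higher and 1 was lower at an unadjusted p under 0.05, while DESeq2 with the block called 1 higher and 1 lower. Sesn2, the leucine sensor Sestrin2, had 48.9, 38.8 and 66.1 CPM in siCOX7A2L replicates 1, 2 and 3, against 49.6, 59.9 and 53.2 CPM in siCTRL replicates 1, 2 and 3, with pairs on both sides of 0 (edgeR adjusted p = 0.798). Mtor and Rptor, which encode the kinase and its partner raptor, had log2 fold changes of 0.12 and -0.086 and did not pass.

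**Figure D4:**
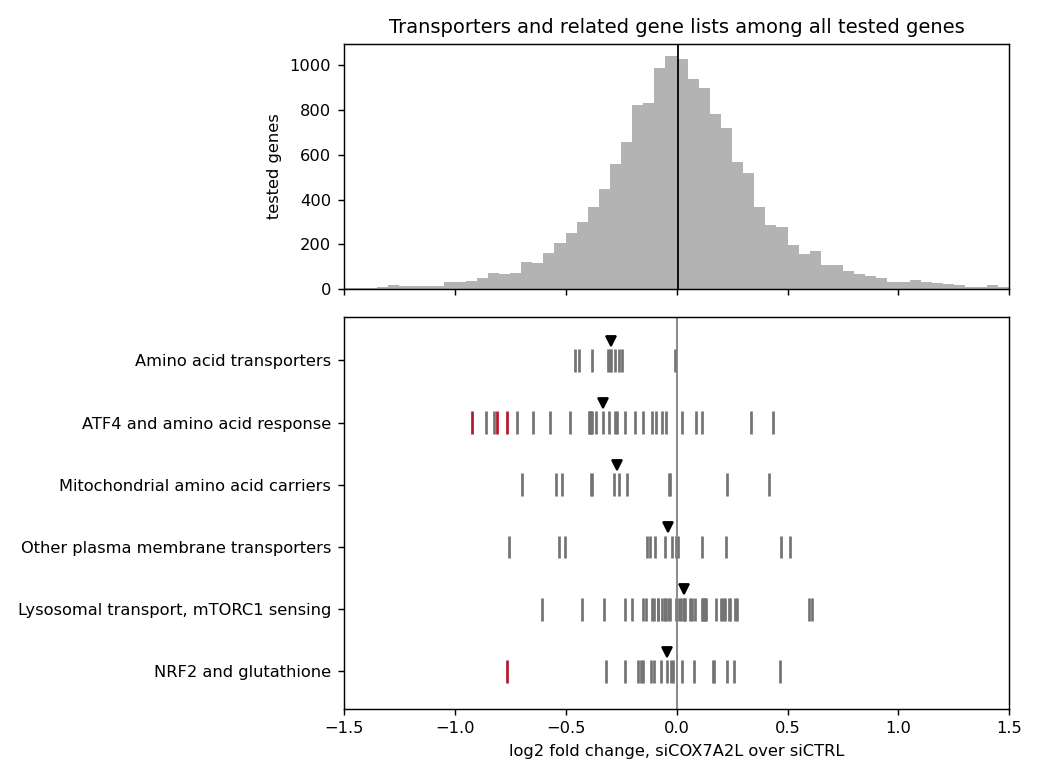
Top, log2 fold changes of all tested genes (axis limited to -1.5 to 1.5; vertical line at the median of 0.0077). Bottom, 1 tick per tested gene of each list, red where the edgeR adjusted p was under 0.05, and a triangle at the list's median; medians are -0.30 for the amino acid transporters, -0.33 for the amino acid response and 0.033 for lysosomal transport and mTORC1 sensing.

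Likeness of profile was measured for Slc3a2 and Slc7a11 as the root mean square difference of centred log2 CPM over the 6 libraries, among 11004 other genes with a mean of at least 5 CPM. For Slc3a2 the nearest were Gnpat (0.022), P4ha2 (0.030) and Rpn2 (0.033), where a flat profile differed by 0.16. For Slc7a11 they were Acsl1 (0.047), Eps8 (0.055) and Ccdc14 (0.057), where a flat profile differed by 0.28. None of these 6 genes passed, with log2 fold changes from -0.54 (Acsl1) to -0.22 (Rpn2).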

How the data were processed

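The authors deposited estimated counts per gene, with no depth scaling, and TPM, which corrects for length and sums alike in each library. Their deposited table of results has, going by the file headers, a scaled count signal per library, a log2 fold change, its standard error and a p-value, raw and adjusted. Its model is not stated there. Tools and build in the submitters' processing notes, listed without roles, are mm39, DESeq2 1.30.1, Salmon 0.13.1 and Trim Galore 0.6.4. For the strand setting and the annotation release, the sources used here give nothing. Values that were not whole made up 12.5% to 14.3% of each library. Of the 10 genes, 3 were not whole (beyond 0.01) in all 6 libraries, which can arise when reads are split between rows.

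Symbols were joined by gene identifier without version (97.6% of rows). Of 2 rows named Ddit3 the more abundant was used. Rounded counts were tested with edgeR 4.0.16 in R 4.3.3: filterByExpr by group (15022 genes kept), TMM, robust glmQLFit and glmQLFTest with the replicate number as block, and Benjamini-Hochberg adjustment at 0.05. The design foresaw counts, hence the rounding. A standard error is the log2 fold change over the root of F. Pair values use log2 CPM with a prior count of 2, which draws low genes towards 0. DESeq2 1.42.0 and limma 3.58.1 on log2(TPM + 1), which understates changes of low genes, were alternatives. The models were tested on simulated data whose planted changes were larger than those of the carriers, so that test does not cover changes of their size. Limma ran there on depth-scaled counts in place of TPM.

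Both groups carry replicate numbers 1 to 3. Deviations from the group means, over all tested genes, correlated at 0.53, 0.45 and 0.67 between libraries of the same number, each above 0.1, so numbers were taken as pairs. Across numbers, replicates 1 and 2 correlated at 0.44 and 0.43, so the pairing is clear only for replicate 3.

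The members, lists and tests were chosen with earlier results of these data known. Named genes were the 10 carriers, Cox7a2l, a chosen set (Atf4, Nfe2l2, Myc, Eif2ak4, Asns, Trib3, Ddit3, Sesn2, Gclc, Gclm and 1 gene not reported here), called genes of each list (up to 3 per direction, filled to 2 by mean CPM), and the 3 nearest profiles of Slc3a2 and Slc7a11. Outside this rule, Slc7a7, Slc7a8 and Slc7a10 were named as parts of the chain ratio. Slc1a3, Myod1, Des, Tcf21, Adgre1 and Epcam were named after their values were seen. So were Slc43a1, Slc43a2, Slc43a3, Slc6a17, Sfxn1, Sfxn2, Slc25a12, Slc25a15 and Slc25a40.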

Additional observations from a re-analysis of the deposited data

How the results depend on the processing

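In each of the 15 other fits 0 of the 10 carriers passed in either direction, and 9 carriers kept a negative log2 fold change throughout. Slc1a4 turned positive, at 0.047 without the replicate block, 0.0015 with a term for replicate 3, 0.13 within replicates 1 and 2 without the block and 0.040 in DESeq2 without the block. Leaving out 1 pair at a time gave Slc1a4 -0.15 to 0.13, positive without replicate 3. The lowest adjusted p of any carrier was 0.0737 (Slc1a5, edgeR without a low-count filter). The median over the 10, -0.30, was -0.55 in limma on log2(TPM + 1), with or without a filter, and -0.61 with 0.1 added. TPM moved the median of all genes to -0.18 and -0.24. After rescaling without the most abundant row, an alternative added once the data had been seen (as were the pathway list counts under other fits), these medians were -0.38 and -0.038.

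The count of all genes passing, 109 (65 higher, 44 lower), depended on the model. It was 2 with no replicate block, 197 with a term for replicate 3, 3 within replicates 1 and 2 without the block, 51 to 1210 when a pair was left out, 58 with library size alone (41 higher, 17 lower) and 1257 without a filter (568 higher, 689 lower). DESeq2 called 490 with the block (213 higher, 277 lower) and 27 without it. On TPM, limma called 11, 9 with 0.1 added, 0 without a filter (1494 at an unadjusted p under 0.05) and 4 after rescaling. The replicate block was part of every leave-out fit, where dropping 1 library leaves its partner without weight, so whole pairs were left out. For the chain ratio the mean of paired log2 differences is by construction the same 0.11 (exact sign-flip p = 0.5). With 3 pairs the sign-flip test cannot reach 0.05. The log2 difference of the chain ratio was 0.018 to 0.24 when a pair was left out. With Slc7a5, Slc7a6 and Slc7a11 alone it was 0.12 (exact permutation p = 0.3), and with Slc7a5 alone 0.086 (exact permutation p = 0.5). On deposited counts in place of TPM it was 0.080 (exact permutation p = 0.6). The ratio of siCTRL replicate 3 was the highest of its group on counts (0.605) and the lowest on TPM (0.938). The causes of these moves were not tested. Depth limits Slc7a11 most, with 59.4 to 198 counts per library.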

Other observations

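Enzymes that use the imported amino acids were also measured. Of 23 tested genes for branched-chain amino acid, arginine and glycine use 0 passed, with 17 negative, a median log2 fold change of -0.070, and 7 lower and 2 higher at an unadjusted p under 0.05 in edgeR. DESeq2 with the block called 4 of them lower and 1 higher, beside 277 lower and 213 higher of its 12224 genes. Azin1, the antizyme inhibitor that favours polyamine synthesis, had 149, 135 and 121 CPM in siCOX7A2L replicates 1, 2 and 3, against 184, 173 and 175 CPM in siCTRL replicates 1, 2 and 3. Its groups did not overlap and it did not pass (log2 fold change -0.40, edgeR adjusted p = 0.123). Shmt2, the mitochondrial serine hydroxymethyltransferase, had -0.39 (edgeR adjusted p = 0.138). Of 20 tested genes of glutamine, glutamate and proline metabolism 1 fell, beside 0.293% of all tested genes. It was Psat1, the same call as in the amino acid response list. Of the 20, 15 were negative and 5 positive. At an unadjusted p under 0.05 in edgeR 4 were lower and 0 higher, while 8.97% of all tested genes were lower at that level. The pyrimidine synthesis gene Cad had a log2 fold change of -0.24 (edgeR adjusted p = 0.299).

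Of 15 tested genes that are known to regulate these carriers 0 passed, with 1 higher and 1 lower at an unadjusted p under 0.05 in edgeR and 0 called by DESeq2 with the block. Nedd4, a ubiquitin ligase of the family that removes carriers from the membrane, had 1211, 1227 and 1154 CPM in siCOX7A2L replicates 1, 2 and 3, against 1017, 968 and 974 CPM in siCTRL replicates 1, 2 and 3. Its groups did not overlap (log2 fold change 0.28, edgeR adjusted p = 0.246). Myc had 36.1, 36.6 and 82.5 CPM in siCOX7A2L replicates 1, 2 and 3, against 44.3, 41.4 and 93.7 CPM in siCTRL replicates 1, 2 and 3 (log2 fold change -0.22, edgeR adjusted p = 0.404). Cd44 had -0.085.

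Slc7a6 differed between the 2 scales in replicate 3. It took 3.24%, 3.61% and 5.79% of the summed TPM of the 10 carriers in siCOX7A2L replicates 1, 2 and 3, against 2.95%, 3.69% and 7.74% in siCTRL replicates 1, 2 and 3. Its CPM in siCTRL replicate 3 was 42.5, beside 40.8 and 41.4 in siCTRL replicates 1 and 2. Slc6a9 also differed between the scales, in siCTRL replicate 1. That library was the lowest of its group on CPM (32.3) and the highest on TPM (17.0, beside 11.55 and 11.7 in siCTRL replicates 2 and 3).

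Of the marker lists, myoblast markers gave 2 genes that rose among 10 tested, the Notch target Heyl (log2 fold change 1.76, edgeR adjusted p = 0.00576) and the satellite cell receptor Megf10 (0.64, edgeR adjusted p = 0.0404). Of these 10 markers 7 were positive and 3 negative, with a median log2 fold change of 0.12. At an unadjusted p under 0.05 in edgeR 2 were higher and 1 was lower. Over all tested genes 17.7% reached that level in either direction, while 0.433% rose and 0.293% fell at the adjusted threshold. In the differentiated muscle list Acta1 rose (1.14, edgeR adjusted p = 0.0407), and Myog had 0.90 (edgeR adjusted p = 0.616). The fibroblast list summed to 2779 to 5056 CPM over the siCOX7A2L libraries and 1821 to 3255 CPM over the siCTRL libraries. Of its 3 tested genes 1 rose, the proteoglycan gene Dcn (1.72, edgeR adjusted p = 0.0419), while Col3a1 had 0.47 (edgeR adjusted p = 0.120), and Tcf21 was at 0 counts in every library. Markers of other cell types summed to 47.6 to 115 CPM over the siCOX7A2L libraries and 73.2 to 84.0 CPM over the siCTRL libraries. Of 3 tested there 0 passed, 1 was positive and 2 were negative. The positive one was higher at an unadjusted p under 0.05 in edgeR, and the negative ones were Tubb3 at -0.35 and Cd68 at -0.15. Of the 14 markers on that list 2, Adgre1 and Epcam, were at 0 counts in every library. The RNA composition list gave 0 calls among 18, with 2 higher and 1 lower at an unadjusted p under 0.05 in edgeR. Lars2 was at -0.24 and Malat1 at 0.25. The part of these markers in the carrier values was not tested.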
